A study of Mus musculus with 4 samples.

Results

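The probes of mouse chromosome 14 were described by their order along the chromosome in 3 neural progenitor cell (NPC) lines. A probe was taken as a member when its deposited position lay on chromosome 14 and its signal was well above background on all 3 NPC arrays. Of 1543 non-control probes placed on the chromosome, 699 met this rule, against 19236 on all autosomes that passed the same filter and 41174 non-control probes in all. The 699 members carried 451 gene names, and 844 probes of the chromosome were not members. The rule then ordered the members by start and set NSEB5-2C against the mean of NS21 and NS195R. That contrast picked out the chromosome, so it is given as a description with no test.

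The study measured RNA on 1-colour Agilent arrays to find genes, transcription factors in particular, that stand higher in NPC lines than in a pool of tissues. NS21, NS195R and NSEB5-2C are NPC lines derived from the embryonic stem cell lines 21, 195R and EB5. The strain label is 129/Ola for NS21 and NSEB5-2C and 129/Sv for NS195R. The remaining sample, Mixture, pooled equal amounts of RNA from day 11 embryo and 6 organs (liver, lung, spleen, thymus, kidney and heart) and is labelled Swiss Webster; its source label names a doxycycline-treated NPC line instead, so the labels conflict. Each line stands for 1 derivation, each sample had 1 array, and no replicate spread exists for any value. The labels name no treatment of the NPC lines.

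Of 11 neural progenitor markers, 8 were well above background in both NS21 and NSEB5-2C and all 11 in NS195R. Fabp7, Hes5 and Sox2 did not reach that limit in NS21, nor did Fabp7, Hes5 and Sox3 in NSEB5-2C. Markers of other cells were also present, with 8 of 9 fibroblast or mesenchyme genes well above background in NS21, all 9 of them in NS195R and 7 in NSEB5-2C. The log2 of their summed level was 5.17 in NS21 and 5.89 in NS195R against 6.22 in NSEB5-2C. In the same order of lines it was 2.21, 2.24 and 4.34 for 7 pluripotent cell markers, and it was 3.97 for these in Mixture. It was 2.06, 3.49 and 0.15 for neuron, 0.49, 5.43 and 0.95 for astrocyte and 1.91, 2.26 and 1.59 for oligodendrocyte markers. Of 8 neuron markers 5, 7 and 4 were well above background in the same order of lines, and of 7 astrocyte markers 3, 5 and 3. Of 7 pluripotent cell markers 4, 2 and 3 were, and of 7 oligodendrocyte markers 5, 5 and 4. The pluripotent cell markers Esrrb, Nanog, Pou5f1 and Tdgf1 did not reach that limit in NSEB5-2C, and Nanog and Tdgf1 reached it in no line. In such bulk RNA, fewer cells of a type and less RNA per cell cannot be told apart, and the part of these marker differences in the values of chromosome 14 was not tested. On each array 23983 to 26840 of the 43379 non-control spots had signal well above background, none was saturated, and copies of a repeated probe within an array had a median SD of 0.0656 to 0.0771 on the log2 scale.

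A chromosome carries its genes in a fixed order, and most genes are switched by their own promoters and enhancers. Neighbouring genes of unrelated function therefore need not stand together in a comparison of cell lines. The RNA level of a gene depends on how many copies of it a cell holds, how often each copy is transcribed and how long the transcript lasts, and an expression array reads the product of all of these. The DNA of the lines was not measured here. Mouse chromosomes carry the centromere at the end where positions begin. Chromosome 14 holds genes of many kinds, among them Rb1, which restrains entry into S phase, Bmp4 and Wnt5a, which encode secreted signals, and Nedd8, whose product is attached to proteins as ubiquitin is.

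Promoters of 4 members are shown because these genes were the brightest named ones in the 10 Mb bins on either side of the step described in the results. Nisch and Glud1 lie before it, and Cnih1 and Nedd8 after it. Sequences run 5′ to 3′ on the strand of the gene, from 250 bases before to 50 bases after the annotated start, with every CG pair in capitals, and come from RefSeq on build GRCm38.p6. The windows are chr14:31206777-31207076 on the minus strand for Nisch, chr14:34310477-34310776 on the plus strand for Glud1, chr14:46788308-46788607 on the minus strand for Cnih1 and chr14:55671831-55672130 on the minus strand for Nedd8.
Nisch: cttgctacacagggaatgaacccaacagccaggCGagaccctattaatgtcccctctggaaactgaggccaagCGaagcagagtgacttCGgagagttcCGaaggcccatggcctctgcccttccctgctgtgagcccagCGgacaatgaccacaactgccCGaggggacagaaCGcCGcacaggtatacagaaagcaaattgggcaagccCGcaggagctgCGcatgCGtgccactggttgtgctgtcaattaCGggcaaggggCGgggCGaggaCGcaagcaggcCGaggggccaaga
Glud1: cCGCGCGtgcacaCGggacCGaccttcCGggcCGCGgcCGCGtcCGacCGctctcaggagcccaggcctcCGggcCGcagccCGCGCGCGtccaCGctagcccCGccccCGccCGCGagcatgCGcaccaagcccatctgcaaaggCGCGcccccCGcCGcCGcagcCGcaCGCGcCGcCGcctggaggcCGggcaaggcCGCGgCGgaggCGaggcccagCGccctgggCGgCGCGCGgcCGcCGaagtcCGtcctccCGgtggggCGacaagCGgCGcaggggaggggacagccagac
Cnih1: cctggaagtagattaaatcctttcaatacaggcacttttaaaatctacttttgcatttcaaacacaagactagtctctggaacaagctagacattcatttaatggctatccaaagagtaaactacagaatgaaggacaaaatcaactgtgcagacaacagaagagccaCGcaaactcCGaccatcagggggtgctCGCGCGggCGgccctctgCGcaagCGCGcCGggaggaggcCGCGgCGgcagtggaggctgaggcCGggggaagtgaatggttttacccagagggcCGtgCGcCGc
Nedd8: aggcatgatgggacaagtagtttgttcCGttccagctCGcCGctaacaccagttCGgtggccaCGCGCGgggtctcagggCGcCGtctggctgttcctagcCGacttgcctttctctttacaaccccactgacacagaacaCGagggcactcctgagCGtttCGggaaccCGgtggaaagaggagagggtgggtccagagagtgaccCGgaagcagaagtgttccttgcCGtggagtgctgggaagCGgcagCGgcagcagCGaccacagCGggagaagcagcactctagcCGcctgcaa
The letters CG occur at 16 places in the Nisch window, 51 in that of Glud1, 17 in that of Cnih1 and 21 in that of Nedd8. At least 1 CG is present in 94.2% of 27025 promoter windows of the same length, with a median of 7. CG reads the same on both strands. Only 292 of the 451 member genes, 64.7%, matched an entry of the promoter table, so that no comparison of promoters along the chromosome was made.

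Probe positions in the rest of the text are those of the array files, whose genome build the sources used here do not give, and they do not equal those of GRCm38.p6. The members began at position 3021363 and ended at 117324814. A level is log2 of the processed signal less the 75th percentile of its array, so 0 is that percentile. Probes differ in how strongly they bind, so levels are compared between arrays for 1 probe. Where a probe or gene is called bright or dim, this ranks signal and not the amount of RNA. A difference of 1.5-fold is 0.58 on this scale.

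The RNA of chromosome 14 stood lower in NSEB5-2C than in the other lines. The median over 699 members was -0.40 (quartiles -0.93 and 0.14), a level 1.32-fold lower than the mean of NS21 and NS195R. The medians of the other 18 autosomes lay between -0.14 for chromosome 4 and 0.16 for chromosome 19, with an SD of 0.0960 between chromosomes. Chromosome 14 was thus the lowest of 19. Of the members, 297 (42.5%) were at least 1.5-fold lower in NSEB5-2C, where the background over probes of other autosomes was 20.7%. At least 1.5-fold higher were 96 (13.7%), against a background of 20.5%. NSEB5-2C was below both other lines at 393 members (56.2%), against 33.9% elsewhere. These counts rest on the contrast in the rule and no more is read from them.

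The lines that the rule averaged did not stand apart from each other at this chromosome. NS21 minus NS195R had a median of 0.16 on chromosome 14, and the other autosomes ranged from 0.02 for chromosome 13 to 0.23 for chromosome 15. At least 1.5-fold higher in NS21 were 179 members (25.6%), where the background was 22.8%, and at least 1.5-fold lower 107 (15.3%), where it was 17.8%. Both shares were near the background. Set against each line alone, NSEB5-2C had a chromosome 14 median of -0.50 from NS21 and of -0.31 from NS195R. The other autosomes spanned -0.23 to 0.17 in the first and -0.09 to 0.25 in the second, so chromosome 14 was lowest in both, although both share the NSEB5-2C array.

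Each line was also set against Mixture, with the Mixture array shared by all 3 differences. The levels of the lines are those that the rule used, so the place of chromosome 14 is a description here too. NS21 minus Mixture had a median of 0.99 on chromosome 14, within the 0.69 to 1.02 of the other autosomes. NS195R minus Mixture had a median of 0.89, also within its range of 0.64 to 0.95. NSEB5-2C minus Mixture had a median of 0.49, below the lowest other autosome at 0.59. The mean of the NPC lines minus Mixture was 0.79 on chromosome 14 against 0.82 over all other autosomal probes, the eighth lowest of 19. The medians of that difference on the other autosomes lay between 0.66 and 1.04. Members were chosen for signal in the NPC lines and not in Mixture, and the part of this choice in the upward differences was not tested. Of the 699 members, 647 were well above background in Mixture too, and their chromosome 14 median was 0.73.

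**Figure D1:**
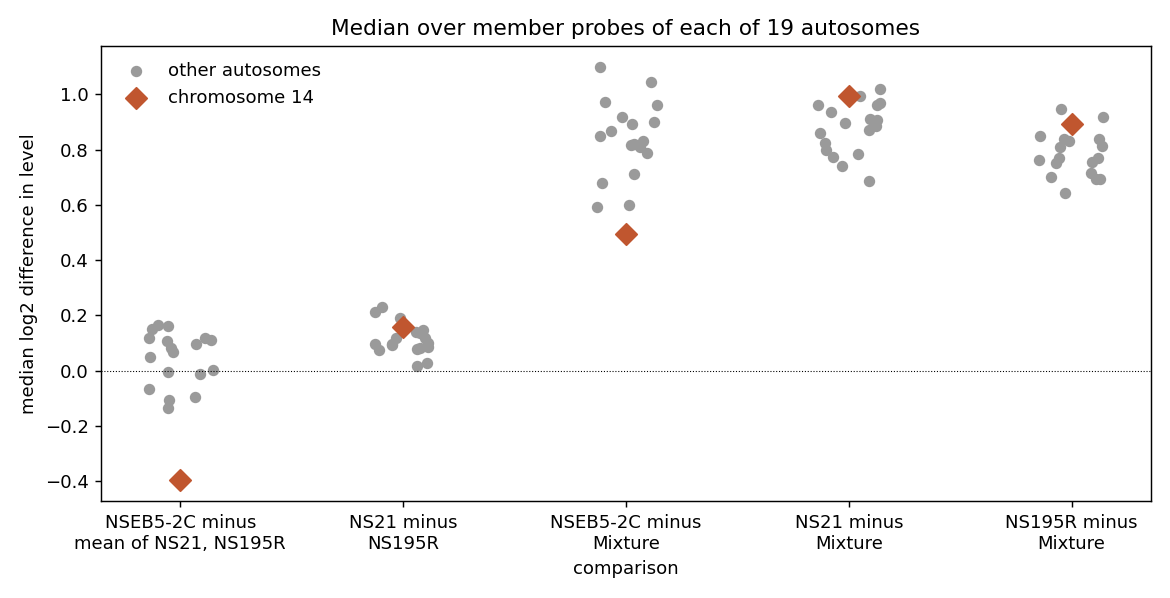
Median log2 difference in level over the probes of each of 19 autosomes (vertical axis) for 5 comparisons between arrays (horizontal axis), with chromosome 14 as a diamond and the other 18 autosomes as grey points. Chromosome 14 lies at -0.40 and 0.49 below all other autosomes in the comparisons of NSEB5-2C with the other lines and with Mixture, and within their range in the other comparisons.

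The difference was not spread evenly along the chromosome. In 10 Mb bins counted from the centromere end, bin 1 had a median of -0.77 over 33 members (quartiles -1.48 and -0.26). Bin 2 had a median of -0.06 over 83 members, bin 3 of 0.13 over 96 and bin 4 of -0.08 over 28. From bin 5 on the medians were again low. They were -0.65 over 127 members in bin 5, -0.69 over 112 in bin 6, -0.61 over 87 in bin 7 and -0.49 over 44 in bin 8. Bin 10 had -0.75 over 36 members and bin 12 had -0.67 over 46. Bins 9 and 11 held 5 and 2 members, under the minimum of 10 for a median. The chromosome thus fell into a short low stretch, a stretch near 0 and a long low stretch that reached the last member.

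**Figure D2:**
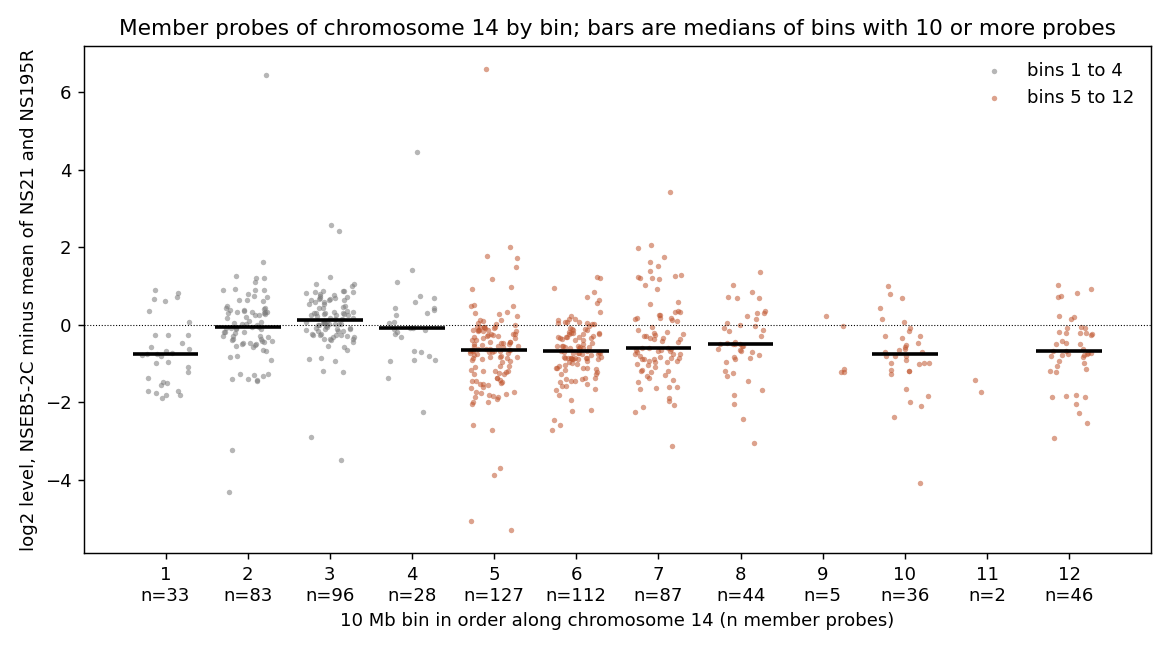
Each point is 1 of 699 member probes, placed by its 10 Mb bin in order along chromosome 14 (horizontal axis) and by the log2 level in NSEB5-2C minus the mean of NS21 and NS195R (vertical axis); bars are medians of bins with at least 10 members. The medians of bins 2 to 4 lie between -0.08 and 0.13, and those of bins 5 to 8, 10 and 12 between -0.75 and -0.49.

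Both reference lines showed the same course. From bin 5 on, the bin medians of NSEB5-2C minus NS21 were -0.81, -0.66, -0.62, -0.64, -0.76 and -0.75 in bins 5, 6, 7, 8, 10 and 12. For NSEB5-2C minus NS195R they were -0.46, -0.57, -0.40, -0.32, -0.84 and -0.33. In bins 2 to 4 the first difference stayed between -0.14 and 0.13 and the second between -0.06 and 0.16. NS21 minus NS195R, a contrast outside the rule, had bin medians from -0.06 in bin 2 to 0.40 in bin 4, then 0.15 in bin 5, and from 0.03 to 0.39 in the later bins. Its bins on other autosomes ranged from -0.78 to 0.56.

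**Figure D3:**
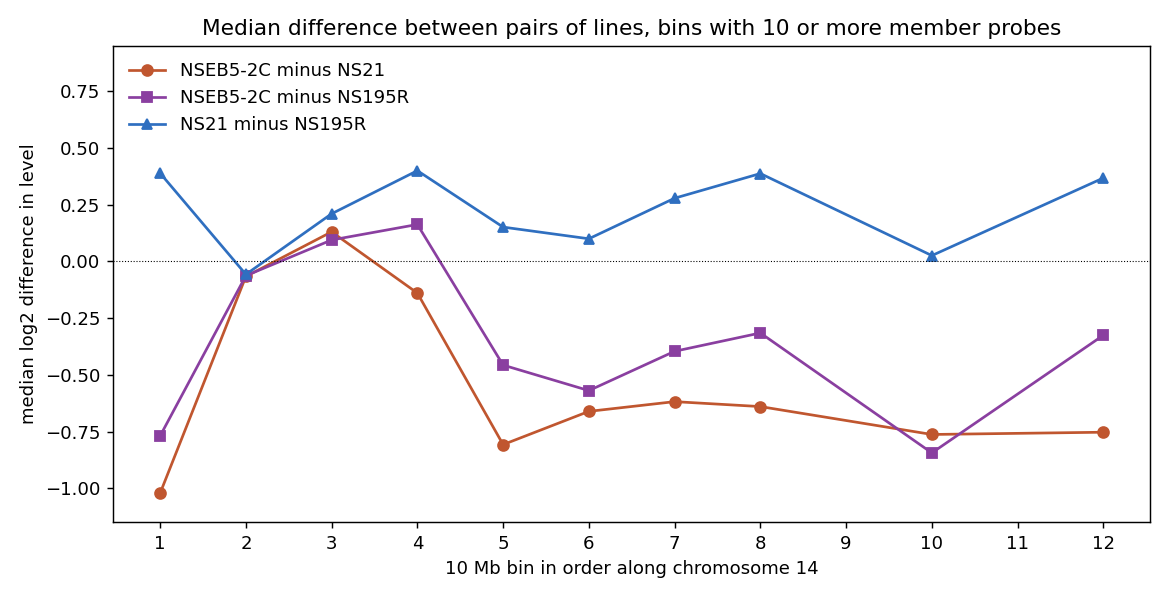
Median log2 difference in level between 2 lines (vertical axis) in the 10 Mb bins of chromosome 14 with at least 10 member probes (horizontal axis), 1 curve for each pair of lines. Both curves of NSEB5-2C drop between bins 4 and 5 to -0.81 and -0.46 and stay below 0 to the end, while NS21 minus NS195R stays between -0.06 and 0.40.

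Bins with such medians were few elsewhere in the genome. Over 237 bins of other autosomes with at least 10 members, the medians of NSEB5-2C minus the mean of the other lines lay between -0.65 and 0.67 with an SD of 0.19. The mark of -0.49, the median of bin 8 on chromosome 14, is the highest of its 6 bins from 40 Mb on, so those bins reach it by construction. At or below it were 3 of the 237, on chromosomes 3, 1 and 4, with medians of -0.65 (14 members), -0.57 (20 members) and -0.50 (28 members).

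**Figure D4:**
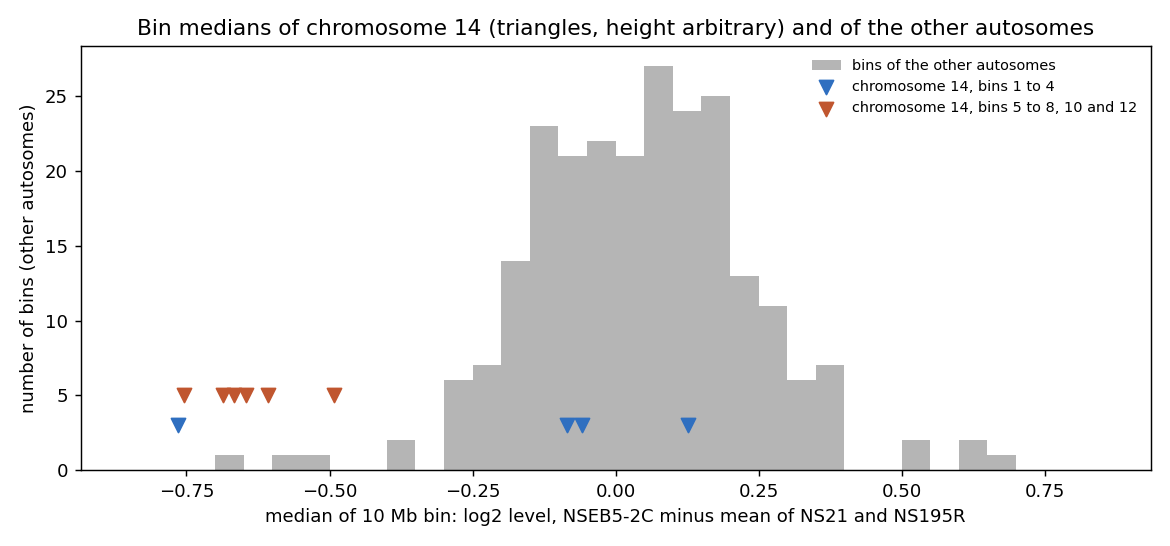
Histogram of the median log2 difference of NSEB5-2C from the mean of NS21 and NS195R (horizontal axis) in 237 bins of 10 Mb on other autosomes (vertical axis, number of bins), with the bins of chromosome 14 as triangles at arbitrary height. The 6 triangles of bins from 40 Mb on lie between -0.75 and -0.49, where 3 of the other bins also lie, and those of bins 2 to 4 lie in the middle of the histogram.

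A limit at 40 Mb, chosen after the bin medians were seen, describes the step. From 10 to 40 Mb, 207 members of 135 genes had a median of 0.04 (quartiles -0.32 and 0.44). From 40 Mb to the end, 459 members of 298 genes had a median of -0.65 (quartiles -1.14 and -0.12), which is 63.9% of the mean of the other lines or 1.56-fold lower. In this second stretch the quartiles lay 1.02 apart, against 0.76 from 10 to 40 Mb and 0.93 on other autosomes. Its 10th and 90th percentiles were -1.74 and 0.51, against -1.06 and 0.97 on other autosomes. Of its members, 364 (79.3%) were below 0, against 48.1% on other autosomes. At least 1.5-fold lower in NSEB5-2C were 244 of the 459 (53.2%), against 20.7% on other autosomes. At least 1.5-fold higher were 44 (9.59%), against 20.5% there. In the stretch from 10 to 40 Mb 32 (15.5%) were lower and 47 (22.7%) higher. NSEB5-2C was the lowest line at 307 members from 40 Mb (66.9%) and at 65 from 10 to 40 Mb (31.4%). On other autosomes that share was 33.9%.

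Against Mixture, the medians on either side of the limit differed most in NSEB5-2C. From 10 to 40 Mb the medians were 0.87 for NS21 and 0.94 for NS195R against 1.01 for NSEB5-2C. From 40 Mb on they were 0.98 for NS21 and 0.81 for NS195R against 0.19 for NSEB5-2C. Over the other autosomes they were 0.88, 0.79 and 0.82. NSEB5-2C was thus the highest of the lines relative to Mixture from 10 to 40 Mb and the lowest from 40 Mb on. It was also the lowest in the first 10 Mb, at 2.79 against 3.33 for NS21 and 3.43 for NS195R. That order came from the first 5 Mb, with 3.34 for NSEB5-2C against 5.43 for NS21 and 4.92 for NS195R. From 5 to 10 Mb NSEB5-2C was the highest, at 1.43 against 1.27 for NS21 and 1.36 for NS195R.

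The size of the difference from 40 Mb on was alike for dim and bright probes. With all autosomal probes that passed the filter split into 3 classes of level, the median was -0.63 over 158 members of the lowest class, -0.67 over 175 of the middle class and -0.60 over 126 of the highest. On the other autosomes the medians of the classes were -0.15, 0.05 and 0.13, and from 10 to 40 Mb -0.09, 0.00 and 0.17. The distance to the other autosomes was therefore smaller among dim probes, where those autosomes were themselves lower.

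Detection was also counted over all probes of the chromosome, members included, from the same background flag that the rule used as its filter, so that these shares are a description too. Of 1045 non-control probes from 40 Mb on, 52.6% were well above background in NS21 and 55.3% in NS195R against 48.0% in NSEB5-2C. On other autosomes the shares were 56.7%, 59.4% and 55.5%. Well above background in both other lines and not in NSEB5-2C were 48 of the 1045 probes (4.59%), against 4 of 447 (0.895%) from 10 to 40 Mb and 1061 of 37407 (2.84%) on other autosomes. The reverse, seen only in NSEB5-2C, held for 14 (1.34%) from 40 Mb and for 2.14% elsewhere. At the edge of the filter, the member probe with the dimmest signal in any line belonged to Itih4, at -4.93. The brightest probe left out, by its dimmest line, was 1 for Irf9 at -4.65, which was well above background in 1 line; another probe of Irf9 is a member.

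The place of the step was followed gene by gene with a running median over 25 genes. In 111 windows within 10 to 40 Mb it stayed between -0.13 and 0.32 and was below 0 in 48. In 274 windows from 40 Mb on it stayed between -1.07 and -0.15 and was below 0 in all 274. The window that runs from Phf7 at 28667998 to Glud1 at 31779215 was the first of 308 that were all below 0. Few members lie near the step, with 3 between 35 and 40 Mb. On the way across it Ccser2 stood at -0.55, Ghitm at 0.49, Tspan14 at -0.79, Prxl2a at 0.39, LOC666415 at -1.36 and Txndc16 at -1.85. Next came Ero1a at 0.11, Psmc6 at -0.30, Styx at 0.02, Gnpnat1 at -0.33, Fermt2 at -1.09 and Ddhd1 at -0.88. These values cross 0 more than once, so single genes do not place the step more closely than this neighbourhood.

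Single values of the brightest genes are given on either side of the step. They are the levels that the rule used, so they illustrate the step and add no support to it. Nisch, whose product binds an integrin and slows migration, had levels of 7.38 in NS21, 7.08 in NS195R, 7.12 in NSEB5-2C and 5.81 in Mixture at its brightest probe. Rpl15, a protein of the large ribosomal subunit, had 6.89, 6.79, 7.01 and 5.54 in the same order. Both lie before 40 Mb, and NSEB5-2C lay within 0.18 of the mean of the other lines at each. Glud1, the mitochondrial glutamate dehydrogenase, had 6.28, 4.91, 5.49 and 5.10. There NSEB5-2C was between the other lines.

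After the step NSEB5-2C was the lowest line at most of the brightest genes, as it was at 66.9% of all members there. Cnih1, at 42095770, serves export of cargo from the endoplasmic reticulum. It had 5.46 in NS21, 5.41 in NS195R, 4.72 in NSEB5-2C and 3.85 in Mixture. The other lines nearly coincided and NSEB5-2C was 1.64-fold below their mean. Nedd8, at 50529907, had 5.36, 5.08, 4.52 and 3.95 in the same order and was 1.62-fold lower. Tpt1, a much-translated protein tied to growth, had 5.72 in both other lines, 5.22 in NSEB5-2C and 5.65 in Mixture, 1.41-fold lower. Uchl3, a hydrolase that acts on the C-terminal end of ubiquitin and Nedd8, had 3.17, 3.03 and 2.75 in NS21, NS195R and NSEB5-2C. At these 4 genes the gap between NS21 and NS195R was smaller than the distance of NSEB5-2C from the nearer of them.

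Of the other brightest genes after the step, NSEB5-2C was not the lowest line at Esd and Farp1 but was at Tdrd3 and Spry2. Esd, an esterase of formaldehyde detoxification, had 4.45 in NS21 and 3.83 in NS195R against 5.41 in NSEB5-2C at its brightest probe, so that NSEB5-2C was 2.40-fold higher. Its other 2 probes stood 1.24 and 1.18 above the mean of the other lines on the log2 scale. Farp1, a FERM-domain protein of dendrites, had 4.17, 2.86 and 3.43, with NSEB5-2C in between. Tdrd3, whose Tudor domain reads methylated arginine, had 1.35, 1.79 and 0.36 at its brightest probe, and NSEB5-2C was lowest at all 3 of its probes. Spry2, a feedback inhibitor of receptor tyrosine kinases, had 1.49, 3.46 and 0.75. Both of its probes, the only members in bin 11, had NSEB5-2C lowest.

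**Figure D5:**
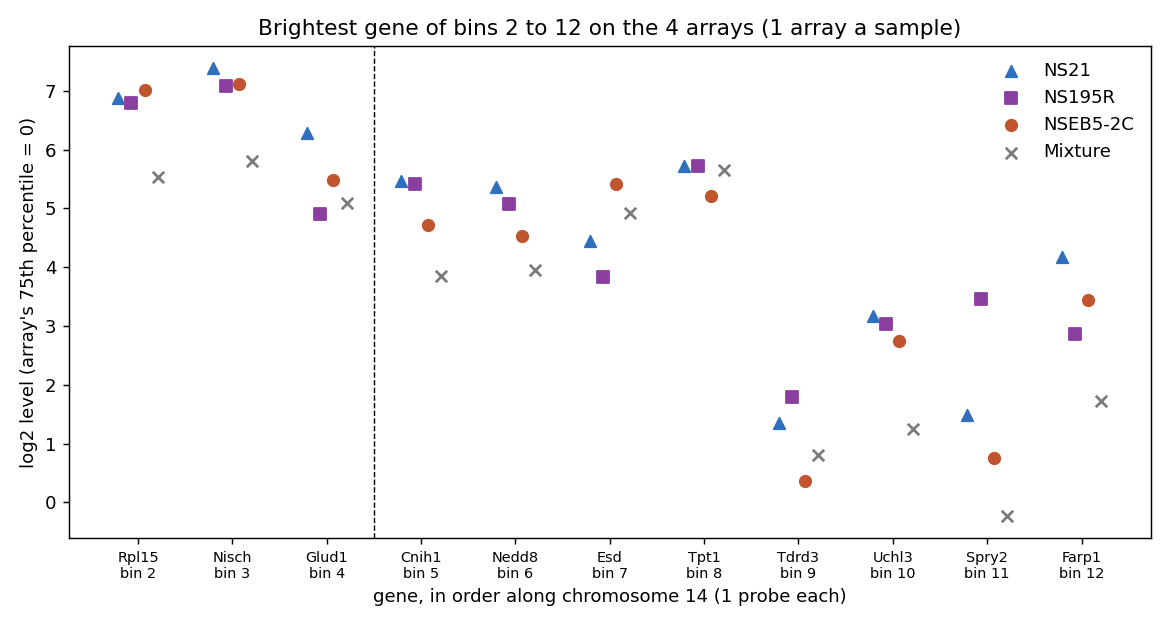
Log2 level, with the 75th percentile of each array at 0 (vertical axis), of the brightest gene in each of the 10 Mb bins 2 to 12 in order along chromosome 14 (horizontal axis) on the 4 arrays; the dashed line marks 40 Mb, and levels are to be compared between arrays within a gene. NSEB5-2C is the lowest line at Cnih1, Nedd8, Tpt1, Tdrd3, Uchl3 and Spry2 and the highest at Esd and Rpl15.

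Probes of 1 gene mostly had similar differences, and they are not replicates of a line. Of 174 genes with more than 1 member probe, which hold 422 of the members, the median range of the difference within a gene was 0.30. Polr3a was the only one with probes at least 1.5-fold lower and at least 1.5-fold higher at once, 1.41 apart. Counted by the mean of its probes, 192 of 451 genes (42.6%) were at least 1.5-fold lower and 57 (12.6%) higher. Over 12272 genes of other autosomes these shares were 21.4% and 19.4%. From 40 Mb on they were 157 of 298 (52.7%) and 26 (8.72%).

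Genes were also grouped by function, in lists written from textbook knowledge with earlier results of these data known. The counts are of genes with at least 1 member probe, and list genes without one are left out. From 40 Mb on, 52.7% of all member genes were at least 1.5-fold lower. In the same stretch this held for 6 of 10 developmental transcription factors, 6 of 8 signalling genes, 3 of 8 neuronal genes and 3 of 13 cell division genes. It held for 8 of 17 chromatin and RNA genes, 7 of 13 genes of the proteasome, ubiquitin and translation, and 11 of 19 genes of mitochondria, transport and metabolism. Lists this short give no measure of a departure from that share, and nothing particular to a list is read from them. The counts that follow are of whole lists. Beside them stand all 451 member genes, with 42.6% at least 1.5-fold lower, 12.6% higher and a median of -0.44.

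Of 22 developmental transcription factors on the array 12 had member probes, with 7 at least 1.5-fold lower, 2 higher and a median of -0.98. Sall2, a zinc finger factor of neural development, had 1.35 in NS21, 2.99 in NS195R, 0.12 in NSEB5-2C and -0.82 in Mixture. Klf12, a repressor of the Krüppel-like family, had -0.52, 0.72, -2.27 and -1.29 at its brighter probe. Hmbox1, a homeobox protein that binds telomeres, was lowest in NSEB5-2C at all 3 probes, with differences of -2.21, -1.38 and -1.27. NSEB5-2C was below both lines at each of these genes. Rarb, a retinoic acid receptor before 40 Mb, stood at -1.40, and Sox21, Lmo7 and Tsc22d1 after it at -1.23, -1.18 and -0.77. On the higher side, Klf5 stood at 0.99, with 1.48 in NS21 and -2.83 in NS195R against 0.32 in NSEB5-2C, so that NSEB5-2C lay between the others. Nr1d2, a clock repressor before 40 Mb, stood at 1.62.

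Signalling ligands and receptors had 11 of 21 genes with member probes, of which 7 were at least 1.5-fold lower and 0 higher, with a median of -0.96. Wnt5a, a Wnt ligand that lies before 40 Mb at 25948244, had -0.76 in NS21 and -1.93 in NS195R against -4.25 in NSEB5-2C, and its signal in Mixture was not well above background. NSEB5-2C was 7.50-fold below the mean of the other lines. Lpar6, a receptor for lysophosphatidic acid, had 4.31, 3.17, 2.44 and 2.55 in NS21, NS195R, NSEB5-2C and Mixture at its brighter probe. Fzd3, a Frizzled receptor, Gpc6, a glypican, Tnfrsf10b, a death receptor, and Stc1, a secreted glycoprotein, stood at -0.99, -1.19, -0.96 and -0.61. At Fzd3 and Gpc6 NSEB5-2C lay close to NS21 and only NS195R was higher. Bmp4 spanned 2.20 in NS21 and -3.07 in NS195R against -0.91 in NSEB5-2C, a spread between the reference lines that far exceeds the difference of -0.48.

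Among genes of the neuronal cytoskeleton and adhesion, 8 of 18 had member probes, with 3 lower, 2 higher and a median of -0.20. Nefm, the medium neurofilament subunit, had -2.34 in NS21, -1.82 in NS195R, -3.69 in NSEB5-2C and -1.77 in Mixture. Its neighbour Nefl, the light subunit, had the opposite order with -1.48, -1.18 and -0.03 in the lines, a difference of 1.30. Ndrg2, known from astrocytes, was also higher, with 0.60 in NS195R and 1.53 in NSEB5-2C, which was 5.78-fold above NS21. Adjacent genes of related function thus stood on opposite sides here.

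Of 14 genes of cell division on the array 13 had member probes, all from 40 Mb on, with 3 lower, 0 higher and a median of -0.24. Rb1, the retinoblastoma protein, had 1.52 in NS21, 1.31 in NS195R, -0.65 in NSEB5-2C and 1.53 in Mixture. The 3 other arrays lay within 0.22 of each other and NSEB5-2C was 4.18-fold below the mean of the other lines. Cenpj, needed for centriole growth, had 1.24, 1.08 and 0.26 in the lines, and Esco2, which acetylates cohesin, had -2.15, -1.51 and -2.58. Ska3, Dlgap5, Cdca2, Mzt1 and Cdkn3, which serve the spindle, the kinetochore or the cell cycle, stood at -0.20, -0.25, -0.18, -0.24 and -0.10. Wdhd1 and Bora stood at -0.56 and -0.50, Ppp2r2a at -0.22, and Diaph3 and Pbk at 0.09 and 0.13.

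Chromatin and RNA processing genes had 20 of 22 with member probes, of which 8 were lower, 0 higher and the median was -0.49. All 8 lie from 40 Mb on, where the list has 17 genes. Mettl3, the catalytic subunit of the m6A methyltransferase, had 1.75 in NS21, 2.46 in NS195R, 0.55 in NSEB5-2C and 0.49 in Mixture. Chd8, a chromatin remodeller, had 4.25, 3.82, 3.36 and 2.66 at its brighter probe. NSEB5-2C was below both lines at each. Tdrd3, Rbm26, Parp2, Hnrnpc, Tox4 and Med4 made up the rest, at -1.19, -0.92, -0.82, -0.68, -0.62 and -0.61. Apex1, the main enzyme that cuts abasic sites, stood at 0.05 with 3.95, 3.82 and 3.93 in the lines. Top2b, Kat6b and Ncoa4, which lie before 40 Mb, stood at -0.42, -0.11 and 0.10.

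Genes of the proteasome, ubiquitin and translation had 17 of 18 with member probes, with 7 lower, 1 higher and a median of -0.46. The 7 were all among the 13 from 40 Mb on and included Nedd8, Mycbp2, Ndfip2, Sugt1, Commd6 and Ubac2. Mycbp2, a large ubiquitin ligase of growing axons, had 0.84 in NS21 and 1.02 in NS195R against -0.04 in NSEB5-2C at its brightest probe. NSEB5-2C was the lowest line at all 3 of its probes, the one nearest the start of the chromosome standing at -0.91. Ndfip2, an adaptor of Nedd4 ligases, had 1.90, 1.44 and 0.69 in the lines at its brighter probe. Psmb5 and Psme1, subunits of the proteasome and its activator, stood at -0.13 and -0.09. Before 40 Mb Rps24, Psmd6 and Ppif stood at 0.20, 0.26 and 0.66. Ppif, a mitochondrial cyclophilin that the list includes, is the 1 gene counted as higher.

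Genes of mitochondria, transport and metabolism had 21 of 23 with member probes, with 11 lower, 3 higher and a median of -0.63. All of those counted lie among the 19 from 40 Mb on. Pcca, a subunit of propionyl-CoA carboxylase, had 1.17 in NS21, 1.29 in NS195R, -0.62 in NSEB5-2C and 1.65 in Mixture. Clybl, a mitochondrial lyase near it, had 0.84, -0.09, -2.16 and 1.76 at its brighter probe. At both, NSEB5-2C was the lowest of all 4 arrays. Pnp, the purine nucleoside phosphorylase, had 2.50, 1.34, 0.54 and 0.68 at its brighter probe. Ktn1, Itm2b, Ipo5, Dad1 and Sucla2 stood at -1.25, -1.04, -0.92, -0.91 and -0.86. The 3 higher were Slc39a14, Gch1 and Esd, at 1.29, 1.25 and 1.23.

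The farthest single members lay on both sides and did not follow the step. Lgals3, the secreted lectin galectin-3, had -3.25 in NS21, -4.15 in NS195R, 2.90 in NSEB5-2C and 3.03 in Mixture. Plau, the urokinase protease, had -3.84, -4.19, 2.43 and -0.70. NSEB5-2C stood 71.1-fold above NS21 at Lgals3, which lies in bin 5, and 77.4-fold at Plau, which lies in bin 2. Arhgap22, an inhibitor of Rac, had 1.52, -1.73, 4.36 and 0.44. Pdlim2, an adaptor on actin fibres, had 3.64, 0.38, 5.43 and 3.12. At Prkcd, a protein kinase C, and Dock5, an activator of Rac, NSEB5-2C and NS21 were within 0.41 of each other at the probes named by the rule and NS195R was far lower.

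On the low side, Efs, an adaptor for Src kinases, had 1.13 in NS21, 4.07 in NS195R, -2.70 in NSEB5-2C and 0.12 in Mixture at its probe with the larger difference. Slc22a17, a receptor for lipocalin next to it, had -2.75, 1.58, -4.45 and -2.62. Both had NS195R far above NS21, so the distance of NSEB5-2C depended on the line it was set against. Zfp503, a zinc finger protein of brain patterning before 40 Mb, had 0.95, 0.75, -3.48 and 1.93. Kctd12, a partner of GABA-B receptors, had -1.06, 1.81, -3.70 and -0.06. Synpo2l, an actin protein of muscle before 40 Mb, had 2.82, -0.77, -2.20 and 2.00, and Stmn4, a stathmin of neurons, had 1.79, -1.87, -3.18 and 1.76. NSEB5-2C was the lowest array at all 6 of these genes.

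The first bin was not of one kind. Its first 5 Mb held 17 members of 10 names, with a median of -1.38, and NSEB5-2C was the lowest line at all 17. They carried names such as 2610042L04Rik, 4930555G01Rik, Gm10413, B930046C15Rik and LOC675467. The brightest probe of 2610042L04Rik had 3.94 in NS21, 3.21 in NS195R, 1.76 in NSEB5-2C and -1.71 in Mixture. The name 2610042L04Rik was given to probes at 3866272, 4716708 and 5369702, so names here recur along the sequence. Such genes have near-identical copies, and which copies a probe reads is uncertain. The next 5 Mb held 16 members with a median of -0.26, among them Pdhb, a subunit of pyruvate dehydrogenase, at -0.25 and -0.26. With the first 10 Mb left out, an alternative chosen after the data were seen, the median of the chromosome was -0.37.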

How the data were processed

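Total RNA of 3 NPC lines and of Mixture was labelled with Cy3 from 0.25 ug each, per the labels, and hybridised to 1 array per sample. Per the file headers, the deposited spot intensity values and flags were made with Agilent Feature Extraction 9.5.3.1 and are background-subtracted. Processed intensity in the authors' value table equalled that of the scanner files at all 45018 features. The sources used here give no genome build for the probe positions.

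Processed signals of non-control spots were taken to log2 less the 75th percentile of each array, spots with outlier flags were left out and copies of a probe were averaged, with pandas 2.3.3 and numpy 2.4.6 in Python 3.11.15. Members were well above background in all 3 lines. Names came from the RefSeq table of GRCm38.p6 by transcript for 482 members, by symbol for 103 and by synonym for 39, and 75 kept the name in the files; the table puts 621 of them on chromosome 14 and 3 elsewhere. Of columns belonging to other samples, 0 were found.

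Medians, quartiles and counts past 1.5-fold were set beside those of probes on other autosomes. With 1 array a line, no test was made and no p-value is given; the array number limits precision. The script for medians and counts was tested on simulated data. Named genes, 42 with 70 member probes, were the brightest of each bin, the 6 largest and 6 smallest differences, and up to 3 of each list; others are given as list members or as genes beside the step. A few genes named by the rule or in a list are not reported here but do enter each count and median. Members, lists and alternatives were chosen with earlier results of these data known. The limit at 40 Mb, the results on either side of it, the genes beside the step and the alternative without the first 10 Mb were chosen after seeing the data. Alternatives were normexp background correction with an offset of 50 (limma 3.58.1 in R 4.3.3), 2 other scalings, 2 other filters, 1 value per gene, outlier spots kept, dim members left out, bins of 5 Mb and leaving out a line.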

Additional observations from a re-analysis of the deposited data

How the results depend on the processing

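A median counts here as moved when it shifts by more than the SD between the other autosomes (for bins and stretches, between their bins), and a count when it shifts by more than 1.5 times. The cause of each move was not tested, except that fewer or more probes enter with other filters or 1 value per gene. With normexp and an offset of 50, the chromosome median of NSEB5-2C against the other lines was -0.24 in place of -0.40, the lowest bin median -0.56 in place of -0.77, the median from 40 Mb -0.39 in place of -0.65, that of NS21 minus NS195R 0.10 in place of 0.16 and that of the NPC mean minus Mixture 0.49 in place of 0.79, and the counts were 56 higher and 197 lower in place of 96 and 297. With no filter on dim probes the chromosome median was -0.16, the median from 40 Mb -0.35, the counts 181 higher, 549 lower and 440 lower from 40 Mb, and the difference from Mixture reversed to -0.035. The mean of the probes of each gene gave 57 higher, 192 lower and 157 lower from 40 Mb, and the brightest probe of each gene 195 lower and 161 lower from 40 Mb. With the dimmer members left out there were 44 higher, 143 lower and 126 lower from 40 Mb. The difference from Mixture was 0.99 with quantile scaling and 0.27 with centring on other autosomes, which sets their own median near 0, and bins of 5 Mb put the lowest median at -1.38. Leaving out 1 line at a time, the chromosome median ran from -0.50 (without NS195R) to -0.31, the lowest bin from -1.02 to -0.84, the highest bin from 0.13 to 0.16, the median from 40 Mb from -0.71 to -0.50, that from 10 to 40 Mb at 0.03, the difference from Mixture from 0.70 to 0.91 (without NSEB5-2C), and the counts from 67 to 120 higher, 262 to 323 lower and 206 to 270 lower from 40 Mb. The share of members at least 1.5-fold lower exceeded that of other autosomes in each setting run, with 28.2% against 11.6% under normexp and 35.6% against 24.6% without a filter. The highest bin median, between -0.02 and 0.24, and the median from 10 to 40 Mb, between -0.04 and 0.18, did not move in this sense under any setting run. No paired analysis was possible because each line had 1 array and the result comes from no test. Signal over background limits the dim members, which have no replicate.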

Other observations

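Values of NS21 and NS195R against the mean of the 2 remaining lines are set beside those of NSEB5-2C, with all 3 contrasts built from the same arrays. On chromosome 14 NS21 stood at a median of 0.31 and NS195R at 0.09, where the other autosomes ranged from -0.04 to 0.20 and from -0.22 to -0.03. From 40 Mb on the medians were 0.44 for NS21 and 0.15 for NS195R, and from 10 to 40 Mb 0.05 and -0.06. From 40 Mb on, the weakest median of a 5 Mb bin with at least 10 members was -0.34, from 60 to 65 Mb over 58 members. The higher genes Nefl, Dock5 and Pdlim2 lie in that bin, as do the lower genes Stmn4, Nefm and Fzd3. The strongest median was -0.94, from 95 to 100 Mb over 22 members.

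In the bin from 60 to 70 Mb, 51.7% of 87 members were at least 1.5-fold lower in NSEB5-2C and 18.4% at least 1.5-fold higher. On other autosomes these shares were 20.7% and 20.5%, so the higher share was near the background. From 20 to 30 Mb 9.38% of 96 members were lower and 26.0% higher.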
